A study of Mus musculus with 4 samples.

Results

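The 39 protein-coding Hox genes of the mouse were examined in 4 RNA sequencing libraries of primary MEFs, mouse embryonic fibroblasts taken into culture from embryos and not turned into a permanent line. Members were all genes whose GENCODE M21 symbol is Hox, a cluster letter from a to d and a number, 39 of 55573 gene identifiers in the deposited files and of 21980 protein-coding genes. Hoxa holds 11 members, Hoxb 10, Hoxc 9 and Hoxd 9. No measured value entered that rule, but the gene family was chosen with earlier results of these data known.

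The study asked how the kinase DYRK2 acts on Hedgehog signalling, and its 4 cultures were Dyrk2-KO, WT without siRNA, WT with siDyrk2 (an siRNA against Dyrk2) and WT with siNeg (a negative-control siRNA). All 4 had received SAG, an agonist of Smoothened that switches the pathway on, at 100 nM for 24 h, and cultures without SAG were not analysed here. Each group was 1 library, so no difference has a replicate check, and no test was made. Whether the WT, siDyrk2 and siNeg cultures came from separate embryos is not stated. The labels also give neither the age of the embryos, nor the part of the body used, nor the kind of knockout allele.

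Each library held an estimated 20 to 23.9 M fragments (M, 1e+06), and 11939 to 12106 genes reached 1 FPKM (fragments per kilobase of exon and 1e+06 fragments). Dyrk2 was at 0.57 FPKM in the Dyrk2-KO library against 6.59 in WT, 11.6-fold lower (95% counting interval 9.17 to 14.7), and at 0.81 with siDyrk2 against 7.06 with siNeg, 8.72-fold lower (7.12 to 10.7). The Hedgehog target Gli1 was at 0.24 FPKM in Dyrk2-KO against 28.81 in WT, and at 2.25 with siDyrk2 against 30.17 with siNeg. Ptch1, the receptor gene and another target, was at 1.23 against 16.32 and at 1.95 against 16.03 FPKM in the same pairs. All 8 fibroblast markers were measured, with Col1a1 at 2377 to 3276 FPKM, while 1 of 5 endothelial, 3 of 5 neural, 1 of 5 skeletal muscle, 2 of 4 cartilage and 0 of 6 epithelial markers reached 1 FPKM in any library. The Dyrk2-KO library stood apart in 2 ways. The Y-linked gene Ddx3y was at 8.28 FPKM there and at 0.02 or less in the other libraries. Dyrk2-KO and WT thus differed in source embryos and sex as well as in genotype, and these cannot be told apart. Of 7 macrophage markers 6 were measured, and all 6 were higher in Dyrk2-KO than in WT (summed level of the list 434.04 against 209.41 FPKM). With siDyrk2 the same sum was 288.89 FPKM, against 233.39 with siNeg. In bulk libraries, fewer cells of a type and less RNA per cell cannot be told apart.

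Hox genes encode homeodomain transcription factors that give cells along the head-to-tail axis and along the limb their positional identity. Within a cluster the order of the genes on the chromosome follows the order of their use: low paralogue numbers act early and towards the head, high numbers late and towards the tail or the tip of the limb. Fibroblasts keep in culture much of the Hox pattern of the place they came from, with Polycomb proteins holding the unused genes silent and trithorax proteins keeping the used ones active. Members are described here as anterior (paralogues 1 to 3, 8 genes), central (4 to 8, 15 genes) and posterior (9 to 13, 16 genes).

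The Hoxd cluster on chromosome 2 (GRCm38, plus strand) shows the pattern in a small space, so the 250 bases before the RefSeq start of a strongly expressed central gene, of the member with the highest Dyrk2-KO to WT ratio of FPKM + 1 and of an end-of-cluster gene near 0 are printed, from RefSeq (GRCm38.p6), 5′ to 3′ with each CG in capitals. They lie at chr2:74704365-74704614 for Hoxd8, chr2:74697513-74697762 for Hoxd9 and chr2:74667975-74668224 for Hoxd13, all on the plus strand.
Hoxd8: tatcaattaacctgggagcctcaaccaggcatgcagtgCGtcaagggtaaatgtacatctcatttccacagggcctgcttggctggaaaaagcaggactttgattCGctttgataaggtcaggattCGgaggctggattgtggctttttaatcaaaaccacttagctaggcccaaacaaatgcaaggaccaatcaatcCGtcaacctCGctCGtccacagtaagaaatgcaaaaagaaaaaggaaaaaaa
Hoxd9: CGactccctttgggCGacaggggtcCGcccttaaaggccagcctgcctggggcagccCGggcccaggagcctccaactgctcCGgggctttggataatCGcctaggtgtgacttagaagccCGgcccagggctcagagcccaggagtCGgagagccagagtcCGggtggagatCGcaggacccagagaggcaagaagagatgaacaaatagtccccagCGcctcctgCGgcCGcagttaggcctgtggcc
Hoxd13: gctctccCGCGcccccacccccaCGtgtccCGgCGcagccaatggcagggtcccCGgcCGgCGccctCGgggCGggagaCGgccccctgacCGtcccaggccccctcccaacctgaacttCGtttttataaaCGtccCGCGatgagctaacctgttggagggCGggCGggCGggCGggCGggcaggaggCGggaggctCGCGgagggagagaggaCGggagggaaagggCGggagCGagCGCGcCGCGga
The stretches hold 6, 13 and 31 CG pairs, so the gene with the most CG among these is the one at 0.05 to 0.11 FPKM, and the one with the fewest is at 17.38 to 19.23 FPKM. RefSeq gave 24 promoters for 22 of the 39 symbols, with a median of 12.5 CG and a range of 2 to 35, against a median of 6 over 32851 promoters of the same length. The fewest were in a promoter of Hoxd11 (0.13 to 0.26 FPKM) and the most in that of Hoxa13 (0.03 to 0.13 FPKM). Whether the number of CG goes with level was not tested. The letters TATAAA, searched on both strands, stood in 4 of the 24, those of Hoxb8, Hoxd4, Hoxd13 and 1 of the 2 of Hoxa10, and in 12.4% of all promoters. The GLI motif GACCACCCA, searched the same way, was in 0 of the 24 and in 0.225% of all promoters; both searches describe letters in these windows only.

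The clusters also hold microRNA genes, and the miR-196 and miR-10 families, which repress Hox messages by pairing to them, are printed with the seed (bases 2 to 8) in capitals because 1 Hox message carries a site that pairs along the whole of miR-196a. The mature sequences are from RefSeq, and the first pair and the second pair each share a seed.
mmu-miR-196a-5p: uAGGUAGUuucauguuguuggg
mmu-miR-196b-5p: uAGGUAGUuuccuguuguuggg
mmu-miR-10a-5p: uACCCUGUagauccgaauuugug
mmu-miR-10b-5p: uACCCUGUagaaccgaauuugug
Hoxb8 3′ UTR site: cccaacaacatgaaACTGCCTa
The Hoxb8 site lies at chr11:96284888-96284909 (GRCm38, plus strand, in the 3′ UTR of the GENCODE model), with the bases opposite the seed in capitals. It pairs with miR-196a-5p at 22 of 22 positions, 21 as Watson-Crick pairs and 1 as G:U, the G:U lying in the seed, and the next best window in any other Hox 3′ UTR reached 19. An exact match to the miR-196 seed, ACTACCT on the message strand, stood in the 3′ UTR of 9 of 39 Hox genes (among them Hoxa4, Hoxa5, Hoxa7, Hoxa9, Hoxb6, Hoxb7 and Hoxc8) and of 6.11% of 21004 genes; Hoxa7 held 4 and Hoxc8 2. The miR-10 seed match, ACAGGGT, stood in 4 of 39 (among them Hoxa3 and Hoxb3) and in 12.5% of the same genes. Matches are letters, and binding was not measured.

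The fibroblasts expressed the middle of the clusters. Of the 39 genes, 28 reached 1 FPKM in at least 1 library and are called measured below, 23 of them in all 4 libraries. All 15 central members were measured, against 5 of 8 anterior and 8 of 16 posterior ones, and by cluster 10 of 11 Hoxa, 8 of 10 Hoxb, 6 of 9 Hoxc and 4 of 9 Hoxd genes. Summed over clusters, paralogue group 8 stood at 41.27 FPKM in Dyrk2-KO, 40.39 in WT, 49.46 with siDyrk2 and 48.31 with siNeg, and group 9 at 39.07, 34.77, 48.18 and 37.73 FPKM. Group 13, the end of the clusters, summed to 0.42 to 0.52 FPKM. The sum over all Hox genes was 178.67 FPKM in Dyrk2-KO, 170.94 in WT, 202.29 with siDyrk2 and 199.01 with siNeg.

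**Figure D1:**
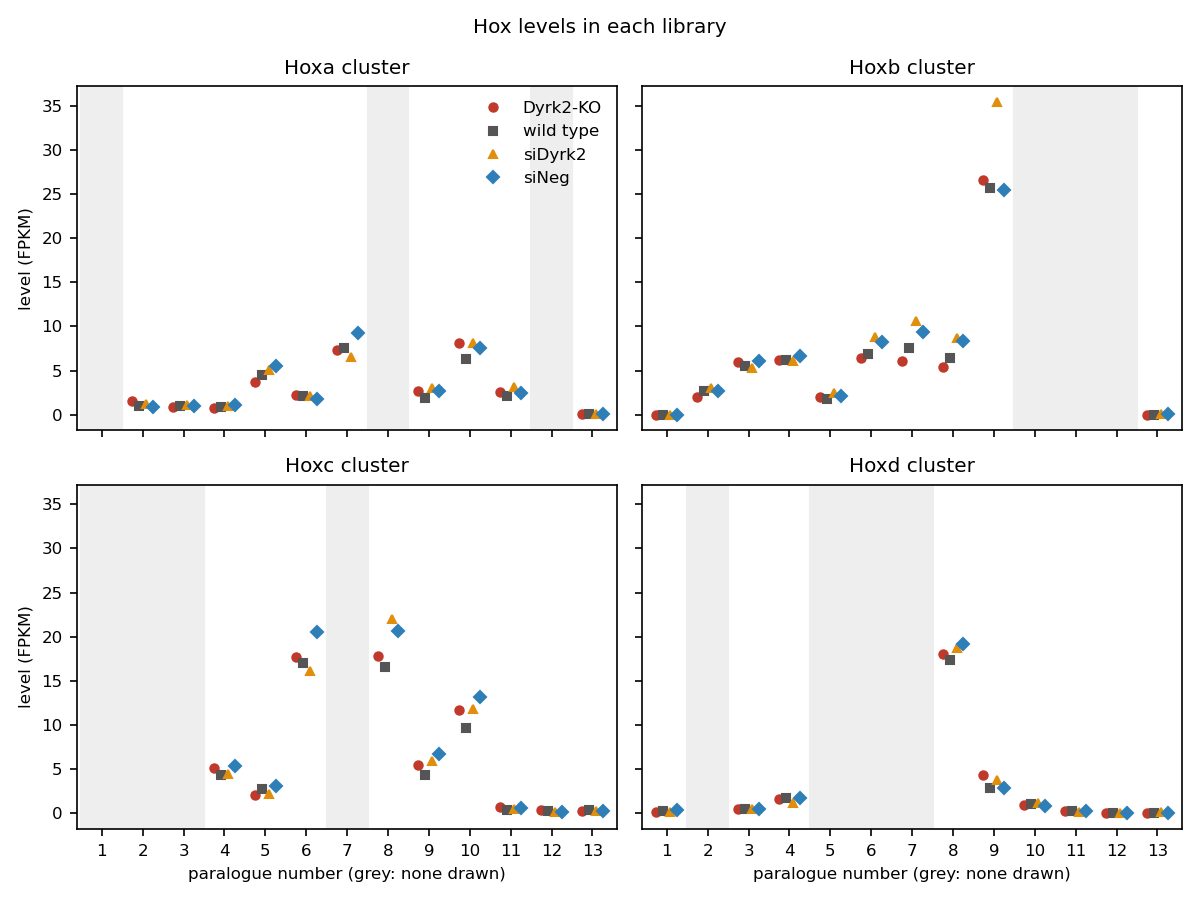
Level in FPKM (vertical axis) of 38 Hox genes against their paralogue number, 1 panel per cluster, with 1 symbol per library; grey columns have no gene drawn. Levels peak at Hoxb9 (25.45 to 35.45 FPKM), Hoxc6, Hoxc8 and Hoxd8 and are near 0 at both ends of the Hoxd cluster.

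Hoxb9, on chromosome 11 at 96271457 to 96276595 and known for patterning the thorax, had the highest level in every library: 26.54 FPKM in Dyrk2-KO, 25.62 in WT, 35.45 with siDyrk2 and 25.45 with siNeg. Its lowest value lay above the highest value of every other member. Hoxc8, which acts in thoracic vertebrae and limb-level motor neurons, was at 17.81, 16.62, 22.04 and 20.68 FPKM in the same order of libraries. Hoxd8 was at 18.03, 17.38, 18.69 and 19.23 FPKM, and Hoxc6, a thoracic gene, at 17.75, 17.04, 16.15 and 20.54. The ranges of Hoxc8, Hoxd8 and Hoxc6 overlap, so their order cannot be set from 4 libraries. Hoxc10, a gene of the lumbar region and hindlimb, came next at 11.76, 9.66, 11.78 and 13.16 FPKM, below all values of those 3 and of Hoxb9.

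In the Hoxa cluster, on the minus strand of chromosome 6, the highest members were Hoxa7 and Hoxa10. Hoxa10, which patterns the lumbar spine and the uterus, was at 8.09 FPKM in Dyrk2-KO, 6.35 in WT, 8.09 with siDyrk2 and 7.58 with siNeg. Hoxa7 was at 7.38, 7.59, 6.59 and 9.29 FPKM in the same order. Their ranges overlap. Hoxa5, needed for lung and respiratory development, was at 3.68, 4.54, 5.01 and 5.57 FPKM. Hoxa9, which also acts in blood progenitors, was at 2.70, 1.95, 3.08 and 2.66 FPKM. Hoxa11, a gene of the forearm and the uterus, was at 2.62, 2.16, 3.12 and 2.47 FPKM, and Hoxa6 at 2.25, 2.10, 2.13 and 1.78. These 4 lay between 1.78 and 5.57 FPKM in every library. Members of low paralogue number were low: Hoxa2, the selector of the second pharyngeal arch, was at 1.57, 0.99, 1.23 and 0.85 FPKM. Hoxa3, needed for thymus and parathyroid, was at 0.91, 0.98, 1.15 and 0.96, and Hoxa4 at 0.75, 0.87, 0.99 and 1.10. Each of these 3 crossed 1 FPKM in some libraries and not in others. Hoxa13, the gene of the hand and foot and of the genital tubercle, stayed at 0.03 to 0.13 FPKM.

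In the Hoxb cluster, on the plus strand of chromosome 11, every gene from Hoxb2 to Hoxb9 was measured in all 4 libraries. Hoxb7 was at 6.07 FPKM in Dyrk2-KO, 7.55 in WT, 10.59 with siDyrk2 and 9.40 with siNeg. Hoxb6 was at 6.42, 6.87, 8.75 and 8.23 FPKM in that order, and Hoxb8, whose message carries the long miR-196a site printed above, at 5.43, 6.39, 8.73 and 8.40. All 3 neighbours were lowest in Dyrk2-KO and lower in both libraries without siRNA than in both transfected ones. Hoxb4, also known for expanding blood stem cells when overexpressed, was steady at 6.18, 6.24, 6.12 and 6.63 FPKM, its highest value 1.08 times its lowest, the smallest such ratio of the 28 genes. Hoxb3 was at 5.97, 5.51, 5.29 and 6.10 FPKM, Hoxb2, a hindbrain gene, at 2.02, 2.67, 3.02 and 2.70, and Hoxb5 at 2.05, 1.74, 2.46 and 2.12. The levels of Hoxb2 and Hoxb3 are less certain, since 27.3% and 52.9% of their exon bases lie opposite the antisense gene Hoxb3os and the sources used here do not say whether counting used the strand. The same holds for Hoxa11, with 35.0% of its exon bases opposite Hoxa11os, and for Hoxa3, Hoxa7 and Hoxa4, with 25.4%, 20.4% and 16.0% opposite other genes. Both ends were silent or nearly so: Hoxb1, a gene of the fourth hindbrain segment, was listed at 0 in all 4 libraries and Hoxb13, a tail and prostate gene, at 0, 0, 0.04 and 0.07 FPKM.

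In the Hoxc cluster, on the plus strand of chromosome 15, Hoxc9 was at 5.46 FPKM in Dyrk2-KO, 4.32 in WT, 5.88 with siDyrk2 and 6.71 with siNeg, with WT the lowest. Hoxc4 was at 5.11, 4.36, 4.43 and 5.42 FPKM and Hoxc5 at 2.04, 2.76, 2.23 and 3.06. Hoxc5 and Hoxc10 share 166 exon bases. Past Hoxc10 the level dropped below 1 FPKM in every library, with Hoxc11 at 0.43 to 0.77, Hoxc12 at 0.18 to 0.44 and Hoxc13, a hair and nail gene, at 0.23 to 0.34 FPKM.

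In the Hoxd cluster, on the plus strand of chromosome 2, Hoxd9 was at 4.37 FPKM in Dyrk2-KO, 2.88 in WT, 3.77 with siDyrk2 and 2.91 with siNeg. Hoxd4 was at 1.58, 1.74, 1.23 and 1.71 FPKM and Hoxd10 at 0.96, 1.04, 1.21 and 0.88. Hoxd8 thus stood far above its neighbour Hoxd9 in every library. Hoxd1, Hoxd3, Hoxd11 and Hoxd13, the digit gene, stayed below 1 FPKM, at 0.05 to 0.55, and Hoxd12 was listed at 0 in all 4 libraries. Hoxd3 and Hoxd4 share 62.3% and 52.3% of their exon bases with each other or with the gene model Gm28230, so their split is uncertain. At these depths 3 fragments, taken as the floor for a value of 0, correspond for a transcript of 2 kb to 0.0686 FPKM in Dyrk2-KO, 0.0627 in WT, 0.0699 with siDyrk2 and 0.0751 with siNeg. The values at 0 of Hoxb1, Hoxb13 and Hoxd12 are therefore limits and not proof of absence, and such limits cover counting error only.

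Posterior genes made up a larger share of Hox expression in the libraries with lowered Dyrk2, in the siRNA pair mostly through Hoxb9. Their share of the summed FPKM was 36.1% in Dyrk2-KO against 32.4% in WT, and 36.4% with siDyrk2 against 31.8% with siNeg. As a share of Hox fragments it was 35.7% (95% exact binomial interval 34.8 to 36.6) in Dyrk2-KO against 32.1% (31.2 to 33.0) in WT, and 36.6% (35.7 to 37.5) with siDyrk2 against 31.7% (30.8 to 32.6) with siNeg. The intervals within each pair do not overlap, but they cover counting error only and not the difference between cultures. Hoxb9 carries most of the siRNA difference: without it the posterior share of FPKM was 24.9% in Dyrk2-KO against 20.4% in WT, and 22.9% with siDyrk2 against 21.8% with siNeg. Central genes held 57.4% in Dyrk2-KO and 60.7% in WT, and 57.4% with siDyrk2 and 61.9% with siNeg. Anterior genes held 6.19% to 6.91% in the 4 libraries.

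**Figure D2:**
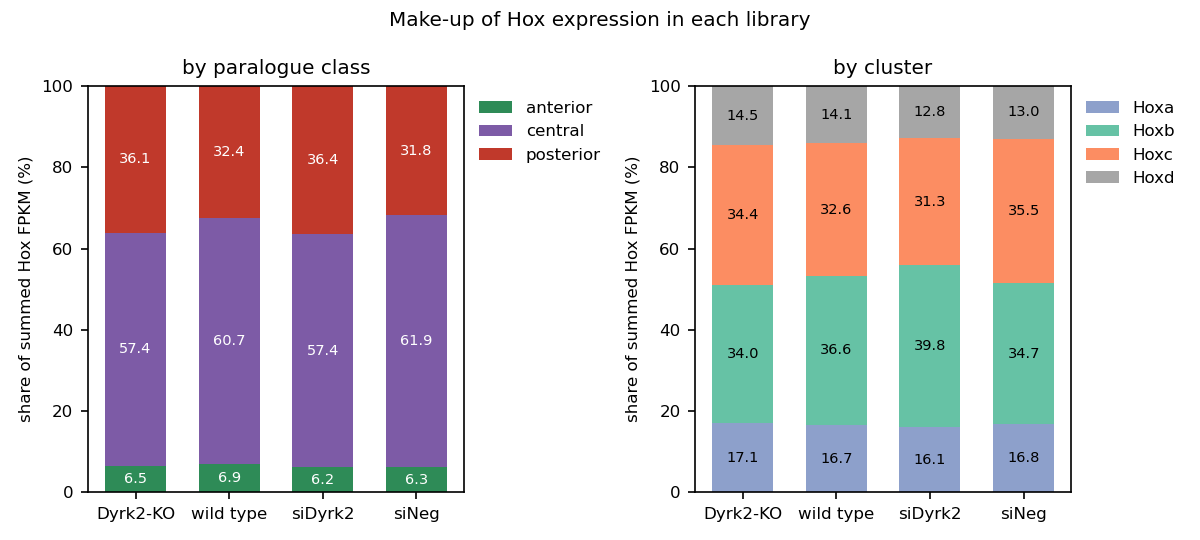
Share in percent (vertical axis) of the summed FPKM of the 39 Hox genes held by each paralogue class (left) and each cluster (right), 1 bar per library. The posterior segment is 36.1% in Dyrk2-KO against 32.4% in WT and 36.4% with siDyrk2 against 31.8% with siNeg.

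By cluster, Hoxb held 34.0% of the summed FPKM in Dyrk2-KO against 36.6% in WT, and 39.8% with siDyrk2 against 34.7% with siNeg, opposite directions in the 2 pairs. Hoxc held 34.4% against 32.6%, and 31.3% against 35.5%, in the same pairs, again opposite. Hoxa held 16.1% to 17.1% and Hoxd 12.8% to 14.5% in the 4 libraries.

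In the Dyrk2-KO library every measured Hox gene stood within 1.5-fold of its WT level on the scale of FPKM + 1. Ratios were taken as log2 of FPKM + 1, which understates those of low genes. None of the 28 measured members reached a 2-fold difference on that scale, where 1.78% of 12817 genes tested did, and none reached 1.5-fold, where 6.62% of all genes did. Ratios ran up to 0.47 (Hoxd9) in log2, with Hoxc5 at -0.31 on the lower side, with a median of 0.05 against -0.02 for all genes tested. In Dyrk2-KO 15 of 28 members were higher, against 43.7% of all genes, and 13 lower, against 55.6%. The median size of the ratio, its sign set aside, was larger for the members, 0.17, than for all genes, 0.13. It was 0.12 for the 9306 protein-coding genes in the members' range of mean FPKM.

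Apart from Hoxa2, the members with the clearest differences were posterior and higher in Dyrk2-KO, or anterior or central and lower. Hoxd9 was 1.52-fold higher in FPKM (204 fragments in Dyrk2-KO, 147 in WT, counting interval 1.22 to 1.89). Hoxa9 was 1.38-fold higher (1.18 to 1.64), Hoxa10 1.27-fold (1.13 to 1.44), Hoxc9 1.26-fold (1.06 to 1.5) and Hoxc10 1.22-fold (1.07 to 1.39). For Hoxa9, Hoxa10, Hoxc9 and Hoxc10 WT was the lowest of all libraries. The control siNeg stood 1.36-fold, 1.19-fold, 1.55-fold and 1.36-fold above WT for them, and 1.01-fold for Hoxd9. Hoxa2 was 1.59-fold higher on 61 fragments in Dyrk2-KO and 42 in WT (1.06 to 2.41). On the lower side, Hoxc5 was 1.35-fold lower (1.08 to 1.69), Hoxb2 1.32-fold (1.07 to 1.64), Hoxb7 1.24-fold (1.04 to 1.5) and Hoxb8 1.18-fold (1.01 to 1.37). With these among them, 11 of the 28 measured members had a counting interval that leaves out 1, where 45.3% of all genes tested did; 6 of the 28 were higher by it, against 19.1% of all genes, and 5 lower, against 26.2%.

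By class, 7 of 8 measured posterior members were higher in Dyrk2-KO, all but Hoxd10, with a median log2 ratio of 0.27. Of 15 central members 6 were higher (median -0.04), and of 5 anterior members 2 were (median -0.05). By cluster the medians were 0.02 for Hoxa, -0.05 for Hoxb, 0.14 for Hoxc, where 5 of 6 were higher, and -0.00 for Hoxd. The member with the highest mean level in each cluster was close to WT: Hoxa7 at 0.972-fold (0.856 to 1.10), Hoxb9 at 1.04-fold (0.964 to 1.11), Hoxc8 at 1.07-fold (0.985 to 1.17) and Hoxd8 at 1.04-fold (0.954 to 1.13). Beside these values, all 6 measured macrophage markers were higher in Dyrk2-KO, with a median log2 ratio of 0.84. Of 8 fibroblast markers 6 were higher and 2 lower, with a median of 0.10. Among the lower ones was the surface marker Thy1, at 159.1 FPKM against 287.88 in WT. The library also carried Y-linked transcripts. The part of these differences in the Hox ratios was not tested.

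**Figure D3:**
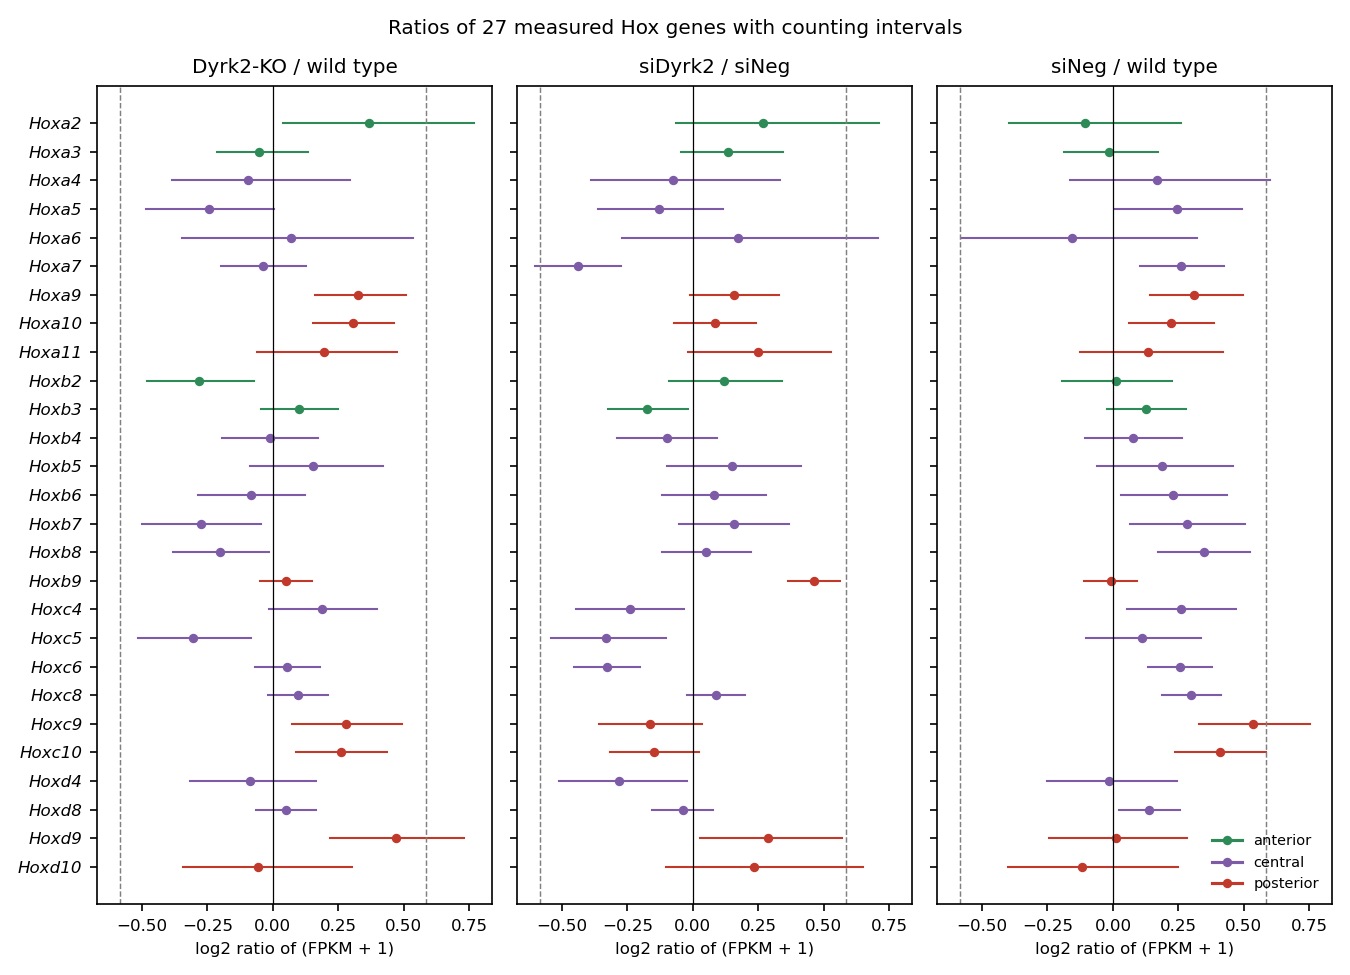
Log2 ratio of FPKM + 1 (horizontal axis) for 27 measured Hox genes (rows) in the Dyrk2-KO over WT, siDyrk2 over siNeg and siNeg over WT comparisons, coloured by paralogue class; bars are 95% counting intervals and dashed lines mark 1.5-fold. No point lies past a dashed line, and 7 of 8 posterior points lie to the right of 0 in the first panel.

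The siRNA comparison, between 2 transfected WT cultures, gave differences of a similar size. Of 28 measured members 0 were at least 2-fold different, against 1.54% of all genes tested, and 0 at least 1.5-fold different, against 6.5%. Log2 ratios ran from -0.44 (Hoxa7) to 0.46 (Hoxb9), with a median of 0.08 against 0.02 for all genes, and 16 of 28 members were higher with siDyrk2, against 54.3% of all genes, and 12 lower, against 45.0%. The median size of the ratio was 0.16 for the members and 0.16 for all genes. Cell type markers differed between the same libraries: 5 of 8 fibroblast markers were lower with siDyrk2 and 3 higher, with a median log2 ratio of -0.36, a summed level of 5550 FPKM against 6923 with siNeg, and a range from -0.49 (Pdgfra) to 0.60 (Pdgfrb). The neural marker Tubb3 was at 18.57 FPKM with siDyrk2 against 8.95 with siNeg, a log2 ratio of 0.98. The other measured neural markers did not share a difference of that size, with log2 ratios of 0.14 for Nes and -0.03 for Map2. The muscle marker Des was at 1.89 FPKM with siDyrk2 against 0.72 with siNeg, and the 6 measured macrophage markers had a median of 0.23. Their part in the Hox ratios was not tested.

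Hoxb9 stood out by its depth: 1959 fragments with siDyrk2 and 1309 with siNeg gave a 1.39-fold higher level (1.30 to 1.49), and its level in the other libraries was close to that of siNeg. Hoxd9 was 1.30-fold higher (1.02 to 1.65). Lower with siDyrk2 were Hoxa7, 1.41-fold (1.24 to 1.61), Hoxd4, 1.39-fold (1.03 to 1.89), Hoxc5, 1.37-fold (1.10 to 1.71), Hoxc6, 1.27-fold (1.16 to 1.40), Hoxc4, 1.22-fold (1.03 to 1.46), and Hoxb3, 1.15-fold (1.02 to 1.31). These 8 of 28 had a counting interval that leaves out 1, where 51.5% of all genes tested did, with 2 higher against 28.3% and 6 lower against 23.1%. The Hoxc members leaned one way: 5 of 6 were lower with siDyrk2, all but Hoxc8, and their median was -0.20, against 0.12 for Hoxa, 0.10 for Hoxb and 0.10 for Hoxd. All 6 were higher with siNeg than in WT, however, with a median of 0.28. Of the 5, Hoxc4, Hoxc9 and Hoxc10 stood above WT with siDyrk2 (4.43 against 4.36, 5.88 against 4.32 and 11.78 against 9.66 FPKM). Hoxc5 and Hoxc6 stood below it (2.23 against 2.76 and 16.15 against 17.04 FPKM). Of the members with the highest mean level in each cluster, Hoxb9 and Hoxa7 thus differed in opposite directions, while Hoxc8 was at 1.07-fold (0.985 to 1.15) and Hoxd8 at 0.972-fold (0.892 to 1.06). By class the medians were 0.20 for posterior members, 6 of 8 higher, -0.08 for central and 0.12 for anterior ones.

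The knockout and siRNA comparisons have no library in common. Hoxd9 was the only member whose counting interval lay above 1 in both, 1 of 28 where 8.43% of all genes tested did, and Hoxc5 the only one below 1 in both, 1 of 28 where 10.5% did. Hoxa9 was at 0.33 with knockout and 0.16 with siDyrk2 in log2, Hoxa10 at 0.31 and 0.08, and Hoxa11 at 0.20 and 0.25. Hoxc9 was at 0.28 and -0.16, and Hoxc10 at 0.26 and -0.15, so these 2 posterior Hoxc genes differed in direction between the approaches; whether the approaches differ was not tested.

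**Figure D4:**
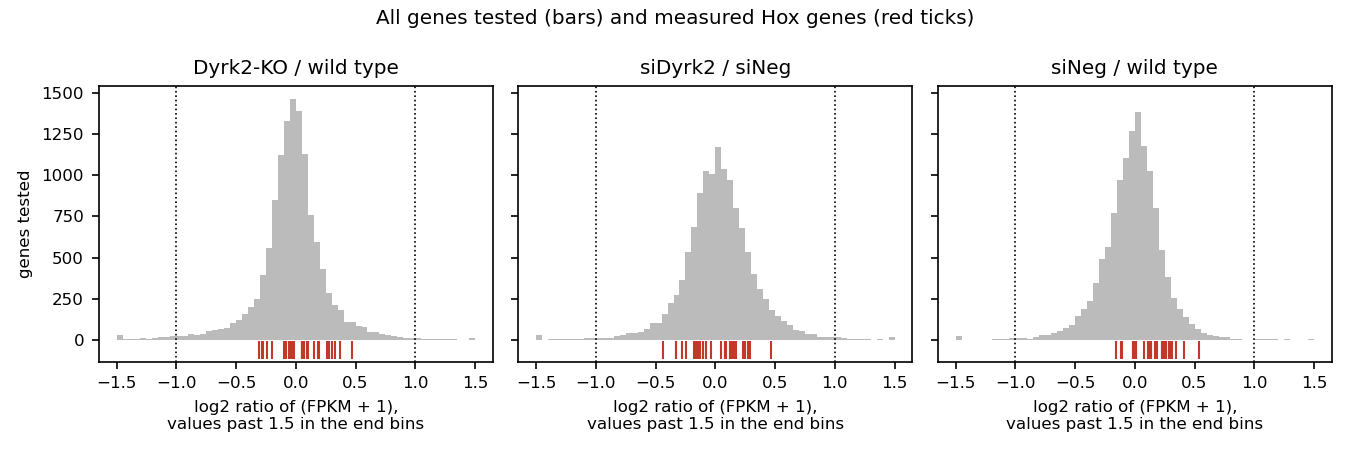
Number of genes tested (vertical axis) by log2 ratio of FPKM + 1 (horizontal axis) in each comparison, with 27 measured Hox genes as red ticks under the bars; dotted lines mark 2-fold. All Hox ticks lie between the dotted lines. They run from -0.31 to 0.47 for Dyrk2-KO over WT and from -0.44 to 0.46 for siDyrk2 over siNeg. For siNeg over WT they run from -0.16 to 0.54.

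Both control libraries, siNeg and WT, differed from each other in Hox levels too, and mostly in 1 direction. In siNeg over WT, 0 of 28 measured members were at least 2-fold different, against 0.928% of all genes tested, and 0 at least 1.5-fold different, against 3.78%. Of 28 members 22 were higher with siNeg, against 48.3% of all genes, and 6 lower, against 51.0%. The median log2 ratio was 0.15 against -0.01 for all genes. Hoxc9 had the highest ratio, 0.54 in log2 or 1.55-fold in FPKM (1.32 to 1.84), and Hoxc10 was 1.36-fold higher (1.20 to 1.55), Hoxa9 1.36-fold (1.15 to 1.62) and Hoxb8 1.31-fold (1.14 to 1.51). In this comparison 13 of 28 members had a counting interval that leaves out 1, where 46.5% of all genes did, and all 13 were higher, against 22.9% of all genes. By cluster the medians were 0.28 for Hoxc, all 6 higher, 0.16 for Hoxb, 0.15 for Hoxa and -0.00 for Hoxd. By class they were 0.23 for central members, 13 of 15 higher, 0.18 for posterior and 0.01 for anterior ones. The 6 measured macrophage markers were higher here too, with a median of 0.40, and their part in the Hox ratios was not tested. This comparison shares the WT library with the knockout comparison and the siNeg library with the siRNA comparison, so their values for Hoxc9, 0.28 with knockout, -0.16 with siDyrk2 and 0.54 with siNeg, rest partly on the same libraries.

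The partners and regulators of Hox proteins were mostly less than 1.5-fold different on FPKM + 1 too. Of 11 TALE cofactor genes, whose products bind DNA together with Hox proteins, 10 were measured. In Dyrk2-KO over WT none of the 10 was 1.5-fold different, against 6.62% of all genes tested (median -0.04). With siDyrk2, 1 of 10 was, against 6.5% of all genes tested. Meis2 was at 5.15 FPKM with siDyrk2 against 8.63 with siNeg (log2 ratio -0.65), and at 7.21 in Dyrk2-KO against 6.55 in WT. None of 10 cluster-edge and ParaHox genes, such as Evx1, Evx2 and Cdx2, reached 1 FPKM.

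All 21 Polycomb genes were measured, with a median of 0.01 in Dyrk2-KO over WT and -0.09 in siDyrk2 over siNeg. Phf19, which helps bring Polycomb repressive complex to chromatin, was at 0.84 FPKM in Dyrk2-KO against 1.79 in WT (log2 ratio -0.60). Ezh2, the H3K27 methyltransferase, was at 3.25 FPKM in Dyrk2-KO against 4.94 in WT (-0.48) and at 5.04 with siDyrk2 against 6.08 with siNeg (-0.23). Rnf2, the ubiquitin ligase of Polycomb complex, was at 23.78 FPKM with siDyrk2 against 15.45 with siNeg (0.59), while Dyrk2-KO and WT had 22.09 and 21.94, so siNeg was the low library. Of 12 trithorax and H3K27 demethylase genes 11 were measured and 0 were 1.5-fold different in either comparison. Of all genes tested 6.62% were in Dyrk2-KO over WT and 6.5% in siDyrk2 over siNeg.

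Retinoic acid, FGF and GDF11 signals set Hox expression in the embryo, and 13 of 18 genes of that list were measured. In Dyrk2-KO over WT 2 of 13 were 1.5-fold different, where 6.62% of all genes tested were. They were Aldh1a1, a retinoic acid synthesis enzyme, at 3.94 against 1.83 FPKM (0.80), and Crabp1, a retinoic acid binding protein, at 51.36 against 85.05 (-0.72). With siDyrk2 2 of 13 were, against 6.5% of all genes tested. They were Crabp2, another such protein, at 10.39 FPKM against 4.20 with siNeg (1.13), and Cyp26b1, which degrades retinoic acid, at 0.33 against 1.06 (-0.63). Crabp2 was at 6.7 FPKM in WT and 8.85 in Dyrk2-KO, so siNeg was its lowest library and siDyrk2 its highest. Cyp26b1 was also at 0.33 in Dyrk2-KO against 0.86 in WT (-0.48). Aldh1a1 was at 3.49 with siDyrk2 against 2.10 with siNeg (0.53).

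Of 47 noncoding genes in or within 5 kb of the Hox clusters 11 were measured. Gm53, in the Hoxb interval, was at 7.64 FPKM in Dyrk2-KO, 8.34 in WT, 7.38 with siDyrk2 and 7.19 with siNeg. Hoxb5os, antisense to Hoxb5, was at 4.07, 4.56, 4.48 and 4.46, and Hotairm1, in the Hoxa cluster, at 1.61, 2.00, 1.95 and 1.37 FPKM. Mir196a-1, whose mature sequence is printed above, had 50, 62, 29 and 35 fragments in the same order, and polyA-selected libraries do not measure mature microRNAs. The ratios of Gm27477, Gm27861, Mir10a, Mir10b and Mir615 rest on 0 to 9 fragments a library and carry no direction.

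Other genes that mark body sites were read beside the Hox pattern. Of 31 limb and body-site factors 18 were measured and 0 were 1.5-fold different in the knockout and siRNA comparisons. Of all genes tested 6.62% and 6.5% were. In Dyrk2-KO over WT 12 were higher and 6 lower (median 0.10), against 43.7% and 55.6% of all genes. In siDyrk2 over siNeg 5 were higher and 13 lower (median -0.19), against 54.3% and 45.0%. Tbx15, a factor of trunk and limb skin mesenchyme, was the highest at 59.68 FPKM in Dyrk2-KO, 54.47 in WT, 42.06 with siDyrk2 and 58.49 with siNeg. The forelimb gene Tbx5 was at 2.46, 1.98, 2.00 and 2.73 FPKM, and the hindlimb genes Tbx4 and Pitx1 at 2.03, 1.89, 1.56 and 2.00 and at 4.49, 3.37, 3.52 and 4.67. Genes of both limbs were thus present in every library. En1, a marker of ventral limb ectoderm and of a dermal fibroblast lineage, was at 13.24 FPKM in Dyrk2-KO against 9.53 in WT, and at 10.61 with siDyrk2 against 9.29 with siNeg. Emx2, a gene of the limb girdle and the urogenital system, was at 7.25 against 5.29 and at 7.03 against 5.05 FPKM in the same pairs. Hand2, of the posterior limb bud, was at 4.84 against 3.48 and at 4.08 against 3.75. Alx4, of the anterior limb bud, was at 3.0 against 4.0 and at 3.53 against 5.76 FPKM. Tbx2, Tbx3, Tbx18, Lmx1b, Six2, Pax1 and Barx1 lay between 0.51 and 5.92 FPKM.

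**Figure D5:**
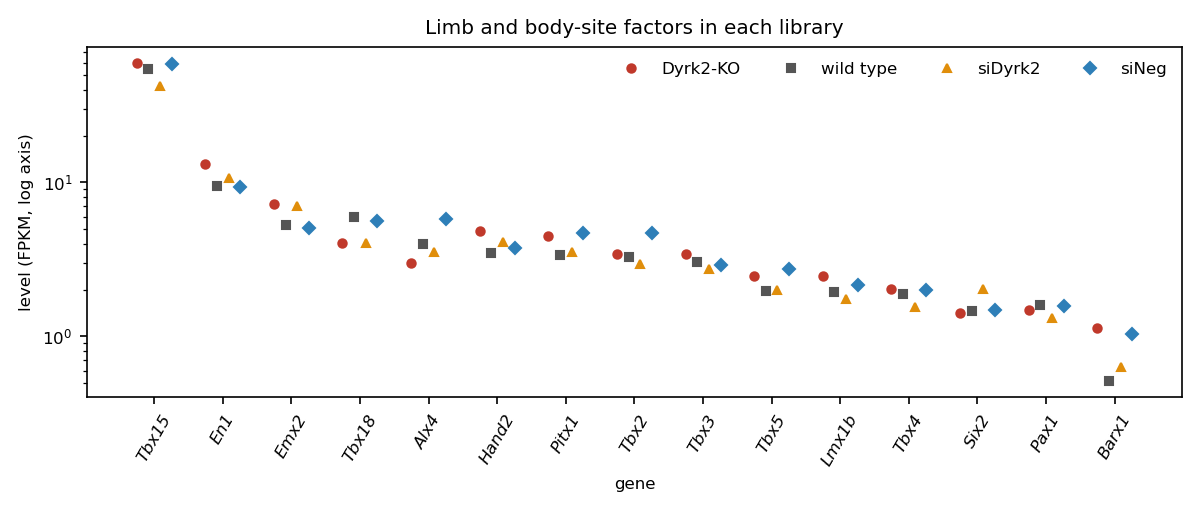
Level in FPKM (vertical axis, logarithmic) of 15 measured limb and body-site factors, ordered by mean level, with 1 symbol per library. Tbx15 stands highest at 42.06 to 59.68 FPKM, and forelimb Tbx5 and hindlimb Tbx4 and Pitx1 appear together in all 4 libraries.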

How the data were processed

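The data were 4 polyA-selected stranded RNA libraries, per the labels' protocols. The tool cutadapt 1.9.1, the aligner HISAT2 2.0.1 and the GRCm38 build are named in the submitters' processing notes; which program counted, whether by strand and on which annotation is not given in the sources used here. Deposited values were FPKM with 2 decimals beside the authors' exonic length of each gene, per the file headers. For all 39 Hox genes that length equalled the merged exons of GENCODE M21, which supplied symbols and coordinates for 55480 of 55573 identifiers. No count model was run.

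Fragments were recovered as FPKM times length times depth, where depth was the value that made genes of 200 bases or less whole (100% of 341 to 402 such genes, within the rounding). Counting intervals (95%) are exact Clopper-Pearson intervals of the conditional binomial and cover counting error only. Ratios are log2((FPKM + 1)/(FPKM + 1)) over the 12817 genes that reached 1 FPKM in any library, and differences were counted at 2-fold and 1.5-fold on that scale; "fold" without the scale is the ratio of FPKM. Scripts used Python 3.11.15, numpy 2.4.6, pandas 2.3.3 and scipy 1.17.1 and were tested on simulated data.

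All members entered the counts, medians and shares, and those above 1 FPKM in any library are given with each value; 1 member and some listed genes are not reported individually here. Genes of other lists are named where 1.5-fold different in the knockout or siRNA comparison or where they are body-site factors above 1 FPKM. Ezh2, the individual cell type markers and the noncoding genes were named after their values were seen. The members and lists were chosen with earlier results of these data known. Alternatives covered the pseudocount, the filter on low values, scaling, the background and shared exons.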

Additional observations from a re-analysis of the deposited data

How the results depend on the processing

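With the deposited scaling or 2 others (trimmed-mean factors of 0.985 to 1.01), every count of Hox members past a fold rule and every median stayed within its counting error, and no value that counted as a call changed sign. The number of members at least 1.5-fold different grew with a pseudocount of 0.1 FPKM to 3 in Dyrk2-KO over WT (Hoxa2 and Hoxd9 among them; 11.5% of all genes) and to 1 in siNeg over WT (Hoxc9; 8.5%), since less is then added to low values. Restricting to genes of at least 5 FPKM put the posterior share at 34.2% in Dyrk2-KO, 31.5% in WT, 35.3% with siDyrk2 and 30.7% with siNeg. Leaving out Hoxb9, an alternative chosen after seeing the data, put it at 24.9%, 20.4%, 22.9% and 21.8% in the same libraries. With the same filter of 5 FPKM the median log2 ratio of Hoxa members in siDyrk2 over siNeg was -0.13 on 3 genes, against 0.12 on 10. Members that share no exon base with another gene gave a Hoxd median of 0.26 in Dyrk2-KO over WT, on 2 genes. No paired analysis was possible because each group held 1 library. For the same reason no replicate could be left out, and the spread between cultures is unknown.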
